A study of Homo sapiens with 6 samples.

Results

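Collagen chains are modified in the endoplasmic reticulum before they leave the cell, and the enzymes and the chaperone of this pathway are followed here in PC-3, an established line of human prostate cancer cells that grew from a metastasis in bone. The 10 genes were chosen by name: the prolyl 4-hydroxylase alpha subunits P4HA1, P4HA2 and P4HA3, the lysyl hydroxylases PLOD1, PLOD2 and PLOD3, the collagen chaperone SERPINH1, and the cross-linking oxidases LOX, LOXL1 and LOXL2. All 10 were found among the 30651 genes of the count table, and all 10 had enough reads to be tested with the 15423 genes that passed the filter on low counts. The comparison asks how their messages differ when MTA1, which belongs to the NuRD complex that remodels and deacetylates chromatin, is reduced.

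There were 3 libraries that the labels name MTA1 and whose data columns are headed shMTA1, called shMTA1 here. The other group held 3 libraries that the labels name Ctrl, matched by elimination to the columns headed NC. Both groups were PC-3 cells grown in DMEM/F12 with serum, and the labels' protocols name lentivirus and the screening of stable clones for all 6 libraries. The number of hairpins and of clones is not given in the sources used here. Nothing says that the libraries came from separate cultures either, so a p-value covers no more than the spread among these 6 libraries, and that spread may be technical.

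The shMTA1 libraries held 29909172 to 30938820 counts and the Ctrl libraries 31726013 to 33849262. MTA1 itself (chromosome 14) had 528, 572 and 519 counts in shMTA1 libraries, against 1185, 1331 and 1352 counts in Ctrl libraries, and its level in shMTA1 was 43.4% of that in Ctrl (log2 fold change -1.21 ± 0.054 SE, edgeR adjusted p = 4.3e-13). The keratins KRT8 and KRT18 were abundant in every library, as known for PC-3. Markers of leukocytes summed to 0.49 to 0.68 FPKM in shMTA1 and 0.58 to 0.90 FPKM in Ctrl, and PTPRC averaged 0.0033 FPKM in both groups. The 9 fibroblast markers, which include 3 collagen chains, summed to 17.23 to 17.57 FPKM in shMTA1 and 11.37 to 12.62 FPKM in Ctrl. Of the 8 tested, 2 were higher and 2 lower, beside 29.5% and 28.6% of all tested genes by the test described below. The largest parts of the sum were THY1, at 10.1 FPKM in shMTA1 and 4.01 FPKM in Ctrl, and LUM, at 4.70 and 4.07 FPKM. PDGFRA averaged 0.0067 FPKM in shMTA1 and 0.010 FPKM in Ctrl. LUM and PDGFRA were chosen after their values were seen. The part of cells with such markers in the results below was not tested. In bulk RNA, fewer cells with a message and less of it per cell cannot be told apart.

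Collagen prolyl 4-hydroxylase is a tetramer of alpha subunits, which hold the catalytic site, and of the beta subunit P4HB, which is protein disulphide isomerase. It makes the 4-hydroxyproline that keeps the collagen triple helix stable at body temperature. The PLOD enzymes hydroxylate lysine, PLOD2 acts mainly on the telopeptides and PLOD3 also glycosylates hydroxylysine. Both enzyme groups need iron, oxygen, 2-oxoglutarate and ascorbate. SERPINH1, also called HSP47, binds the folded procollagen helix until it reaches the Golgi. Outside the cell the copper enzymes LOX, LOXL1 and LOXL2 oxidise lysine and hydroxylysine, which starts the covalent cross-links of collagen and elastin. Several of these genes, among them P4HA1, P4HA2, PLOD1, PLOD2 and LOX, are known as genes induced by low oxygen in other cells, and SERPINH1 is known as a heat shock gene.

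Of the 10 genes, 8 rose in shMTA1 libraries, 1 fell and 1 did not pass the test. A gene passed when the quasi-likelihood test of edgeR gave it an adjusted p below 0.05, with adjustment over all 15423 genes. By the same rule 29.5% of all tested genes were higher, 28.6% were lower and 58.1% were called in either direction, so a call alone is common in this comparison. The median log2 fold change of the 10 genes was 0.76, against 0.0015 over all tested genes. The rises ran from 1.51-fold for PLOD3 to 4.46-fold for LOX. The libraries of the groups did not overlap in CPM for any of the 10, 9 of which were higher and 1 lower in shMTA1. That was also the case for 32.1% of all tested genes in the higher and 30.6% in the lower direction.

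**Figure D1:**
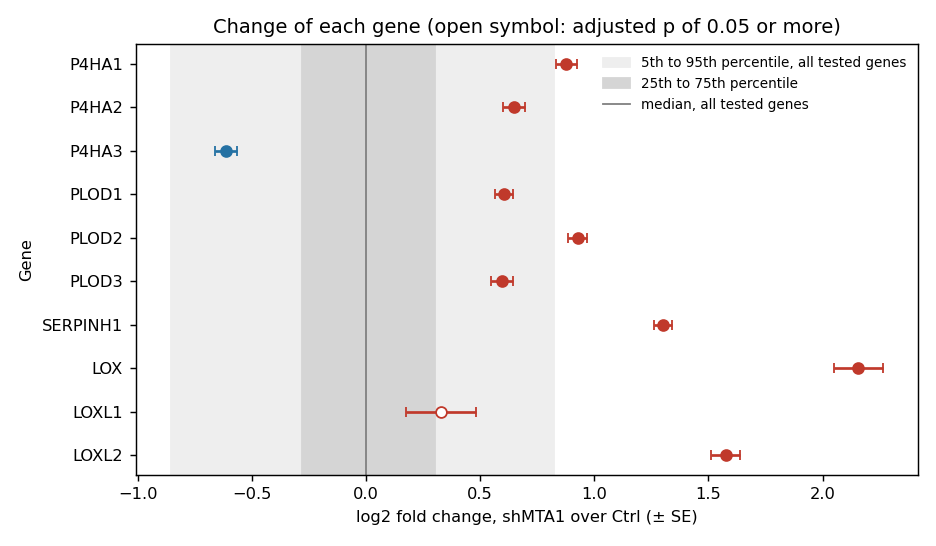
Log2 fold change of each gene, shMTA1 over Ctrl, with its SE as bars; the grey bands span the 5th to 95th and the 25th to 75th percentile of all tested genes (-0.85 to 0.83 and -0.28 to 0.30). P4HA1, PLOD2, SERPINH1, LOX and LOXL2 lie beyond the wider band, P4HA3 is the single gene on the left, and the open symbol of LOXL1 marks a gene that did not pass.

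The promoters of 8 of the 10 genes were found in the RefSeq table of build GRCh38.p14, which gives 250 bases before and 50 after each start. Of these, 4 are shown, because their genes rose and because their windows hold ACGTG, letters of a motif for factors that answer low oxygen. PLOD1, which rose too and holds only the related core GCGTG, is not shown, and GCGTG is not marked. Capitals mark ACGTG on either strand (read as CACGT on the printed strand where it lies on the other), the core letters of a hypoxia response element. In SERPINH1 they also mark a heat shock element, searched on both strands as TTC, GAA and TTC with 2 free bases between neighbours. For genes with several listed starts, the first listed was used.
P4HA1 promoter, chr10:73096817-73097116, minus strand: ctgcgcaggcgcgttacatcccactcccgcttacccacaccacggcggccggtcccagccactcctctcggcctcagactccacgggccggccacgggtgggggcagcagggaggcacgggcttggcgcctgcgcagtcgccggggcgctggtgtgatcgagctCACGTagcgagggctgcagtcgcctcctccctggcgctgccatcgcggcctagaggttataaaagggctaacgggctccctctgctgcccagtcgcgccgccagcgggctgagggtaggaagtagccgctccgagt
PLOD2 promoter, chr3:146161135-146161434, minus strand: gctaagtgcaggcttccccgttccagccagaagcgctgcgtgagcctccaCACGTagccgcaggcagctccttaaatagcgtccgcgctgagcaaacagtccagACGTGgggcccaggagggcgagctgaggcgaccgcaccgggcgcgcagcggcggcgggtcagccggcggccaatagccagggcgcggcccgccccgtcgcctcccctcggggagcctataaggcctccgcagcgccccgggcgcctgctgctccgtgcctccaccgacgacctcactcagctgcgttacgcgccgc
SERPINH1 promoter, chr11:75562003-75562302, plus strand: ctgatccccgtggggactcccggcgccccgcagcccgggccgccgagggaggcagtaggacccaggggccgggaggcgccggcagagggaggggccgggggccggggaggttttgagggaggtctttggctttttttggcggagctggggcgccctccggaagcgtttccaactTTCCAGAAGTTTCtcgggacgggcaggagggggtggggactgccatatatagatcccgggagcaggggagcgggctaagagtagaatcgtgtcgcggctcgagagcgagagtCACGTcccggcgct
LOX promoter, chr5:122078210-122078509, minus strand: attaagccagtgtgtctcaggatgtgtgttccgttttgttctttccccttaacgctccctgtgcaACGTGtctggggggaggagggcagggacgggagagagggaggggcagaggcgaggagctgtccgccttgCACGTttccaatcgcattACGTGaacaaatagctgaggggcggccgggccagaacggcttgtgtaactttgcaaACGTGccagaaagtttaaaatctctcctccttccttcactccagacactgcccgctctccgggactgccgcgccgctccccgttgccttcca

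ACGTG stood in these 4 promoters and in none of the windows of P4HA2, PLOD1, PLOD3 and LOXL1. The LOX window held 4 matches, which began 185, 116, 98 and 42 bases before the start, and PLOD2 held 2, at 200 and 146 bases before it. The single match of P4HA1 began 86 bases before the start, and that of SERPINH1 37 bases after it. Among the promoters of 10561 tested genes in the table, 26.7% held at least 1 match, 12.3% at least 2 and 1.40% at least 4. The heat shock element of SERPINH1 began 76 bases before the start, and 0.331% of the same promoters held such a match. The related core GCGTG, searched on both strands as well, had 2 matches in PLOD1, at 68 and 25 bases before the start, and 1 in PLOD2, and stood in 51.0% of the promoters of tested genes. It cannot fall on the same letters as ACGTG on the same strand, while the palindrome CACGTG would count as 2 matches of ACGTG. The endoplasmic reticulum stress element, CCAAT and CCACG with 9 free bases between them on either strand, was in none of the 8 windows and in 0.133% of those of tested genes. A match describes letters only, and no binding was measured here.

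The prolyl 4-hydroxylase alpha subunits did not move together. P4HA1 (ENSG00000122884.13, chromosome 10), the most widely expressed alpha subunit, had 27.99, 28.31 and 27.08 FPKM in shMTA1 libraries, against 15.03, 14.31 and 13.99 FPKM in Ctrl libraries. FPKM, as deposited, count fragments relative to gene length and library depth. Every shMTA1 library was higher than any Ctrl library, and P4HA1 rose 1.84-fold (log2 fold change 0.88 ± 0.046 SE, edgeR adjusted p = 3.1e-12). P4HA2 (ENSG00000072682.20, chromosome 5), which forms the second isoenzyme, had 10.77, 11.12 and 12.02 FPKM in shMTA1 libraries, against 6.58, 6.89 and 7.16 FPKM in Ctrl libraries. It rose 1.57-fold, also without overlap (0.65 ± 0.047, edgeR adjusted p = 3.6e-10).

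P4HA3 went the other way. This alpha subunit (ENSG00000149380.12, chromosome 11) had 10.59, 11.32 and 10.98 FPKM in shMTA1 libraries, against 16.59, 15.61 and 15.81 FPKM in Ctrl libraries. All 3 shMTA1 libraries lay below the Ctrl libraries, and the level fell to 65.4% of that in Ctrl (log2 fold change -0.61 ± 0.047 SE, edgeR adjusted p = 9.6e-10). In GENCODE 29 the exons of P4HA3 share 166 bases with PPME1 on the opposite strand. PPME1 had 1014, 1018 and 1023 counts in shMTA1 and 794, 862 and 795 in Ctrl, and the strand setting of the counting is not given in the sources used here. The antisense gene P4HA3-AS1 had at most 8 counts in any library.

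Relative to each other, P4HA1 had 2.64, 2.50 and 2.47 times the FPKM of P4HA3 in shMTA1 libraries, against 0.906, 0.917 and 0.885 times in Ctrl libraries. By FPKM, P4HA1 was thus a little below P4HA3 in Ctrl and well above it in shMTA1, a ratio chosen after its values were seen (difference of log2 ratios 1.49). Summed over P4HA1, P4HA2 and P4HA3, the alpha subunit level was 50.1 ± 0.700 FPKM in shMTA1 and 37.3 ± 0.763 FPKM in Ctrl (SD, n = 3 each). P4HA3 made up 21.9 ± 0.424% of that sum in shMTA1 and 42.9 ± 0.518% in Ctrl, and P4HA1 made up 55.5 ± 1.34% in shMTA1 and 38.7 ± 0.764% in Ctrl.

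P4HB, the beta subunit shared by all 3 isoenzymes, had 112 to 116 FPKM in shMTA1 libraries and 66.4 to 72.1 FPKM in Ctrl libraries. It rose 1.56-fold (log2 fold change 0.64 ± 0.041 SE, edgeR adjusted p = 6.1e-11), close to P4HA2. The summed alpha subunits stood at 0.440 ± 0.0108 of P4HB in shMTA1 and at 0.536 ± 0.0342 in Ctrl (ratio of FPKM, SD, n = 3 each). The alpha subunit messages as a sum therefore gained less than P4HB (difference of log2 ratios -0.28, exact permutation test over the 6 libraries, 2-sided p = 0.10, the smallest that 3 against 3 allows). The ratio of P4HA1 to P4HA2 was 2.47 ± 0.186 in shMTA1 and 2.11 ± 0.167 in Ctrl, with overlapping libraries (exact permutation p = 0.20).

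The order of these levels depends on the length used, while the changes do not. From counts and FPKM together, and taking all listed counts as the depth, the implied gene length was about 3495 bases for P4HA1, 11446 for P4HA2 and 4509 for P4HA3. The longest transcripts of GENCODE 29 have 2844, 3349 and 2627 bases, and the union of all exons has 3093, 8502 and 4009 bases. The implied length was also above the union for PLOD1 (6012 against 5320 bases) and SERPINH1 (7097 against 6281 bases). A depth above the listed counts would make the implied lengths shorter. Per kilobase of coding sequence, P4HA2 had 78.8 ± 4.01 CPM in shMTA1 and 50.3 ± 2.08 CPM in Ctrl, and P4HA1 59.3 ± 1.71 CPM in shMTA1 and 32.3 ± 1.32 CPM in Ctrl (SD, n = 3 each). On that scale, chosen after the values were seen, P4HA2 was above P4HA1 in both groups. On the FPKM scale P4HA1 was above P4HA2 in both. P4HA3 made up 16.2 ± 0.402% of the summed alpha subunits per coding kilobase in shMTA1 and 33.1 ± 0.909% in Ctrl. For P4HB the implied length was about 12579 bases, longer than the 5303 bases of all its GENCODE 29 exons. Per coding kilobase the summed alpha subunits stood at 0.179 ± 0.00361 of P4HB in shMTA1 and 0.209 ± 0.0103 in Ctrl.

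All 3 lysyl hydroxylases rose. PLOD1 (ENSG00000083444.17, chromosome 1), which hydroxylates lysine in the helical part of collagen, had 43.78, 43.27 and 45.71 FPKM in shMTA1 libraries, against 27.01, 29.23 and 27.12 FPKM in Ctrl libraries. It was the highest of the 10 genes by FPKM in both groups and rose 1.52-fold (log2 fold change 0.60 ± 0.041 SE, edgeR adjusted p = 1.5e-10). PLOD3 (ENSG00000106397.12, chromosome 7), which also carries glycosyltransferase activity, had 12.66, 12.94 and 13.62 FPKM in shMTA1 libraries, against 7.74, 8.36 and 8.64 FPKM in Ctrl libraries. Its groups did not overlap and its rise was almost the same size, 1.51-fold (0.60 ± 0.048, edgeR adjusted p = 1.9e-09). In GENCODE 29 the exons of PLOD3 share 429 bases with ZNHIT1 on the opposite strand, which had 4094 to 4669 counts in shMTA1 and 4206 to 4533 in Ctrl.

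PLOD2 (ENSG00000152952.12, chromosome 3), whose hydroxylation of telopeptide lysines is known to lead to the more stable hydroxylysine-derived cross-links, rose the most of the 3. It had 13.59, 13.93 and 13.37 FPKM in shMTA1 libraries, against 6.87, 6.78 and 6.88 FPKM in Ctrl libraries. The spread within each group was small, and the rise was 1.90-fold (log2 fold change 0.93 ± 0.042 SE, edgeR adjusted p = 4.9e-13). PLOD2 stood at 0.308 ± 0.0148 of PLOD1 in shMTA1 and at 0.247 ± 0.0127 in Ctrl. Relative to PLOD3 it stood at 1.04 ± 0.0539 in shMTA1 and 0.832 ± 0.0490 in Ctrl (ratios of FPKM, SD, n = 3 each). Neither ratio overlapped between the groups, with differences of log2 ratios of 0.32 and 0.33 (exact permutation p = 0.10 for each). By FPKM, PLOD2 was thus at the level of PLOD3 in shMTA1 and below it in Ctrl. Per kilobase of coding sequence it was above PLOD3 in both groups, at 1.37 ± 0.0714 times PLOD3 in shMTA1 and 1.09 ± 0.0643 times in Ctrl. Summed, the 3 lysyl hydroxylases had 71.0 ± 1.51 FPKM in shMTA1 and 42.9 ± 1.39 FPKM in Ctrl, of which PLOD1 made up 62.4 ± 0.607% in shMTA1 and 64.8 ± 1.14% in Ctrl.

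**Figure D2:**
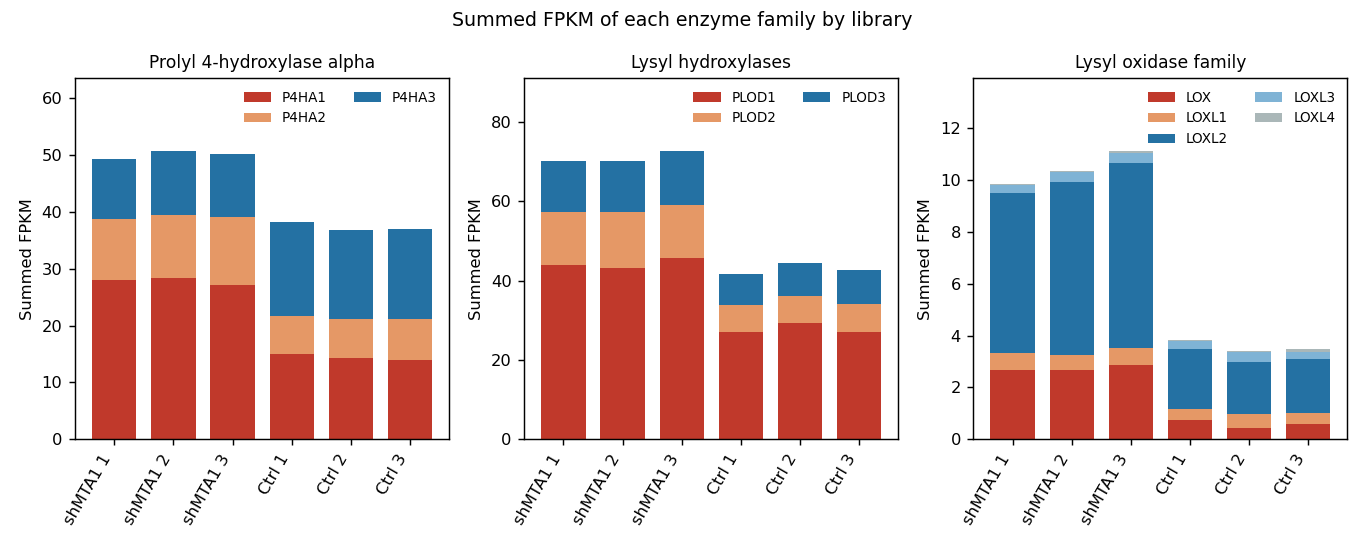
Stacked FPKM of the prolyl 4-hydroxylase alpha subunits, the lysyl hydroxylases and the lysyl oxidase family, 1 bar for each library, shMTA1 on the left and Ctrl on the right of each panel. The blue P4HA3 segment shrinks to 21.9% of its bar in shMTA1, against 42.9% in Ctrl, PLOD1 is the largest segment of every lysyl hydroxylase bar, and the LOX family bars differ 2.92-fold in height.

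SERPINH1 (ENSG00000149257.16, chromosome 11) had the smallest SE of the 10 genes. It had 40.75, 40.85 and 41.45 FPKM in shMTA1 libraries, against 15.44, 16.21 and 15.96 FPKM in Ctrl libraries. The lowest shMTA1 library was far above the highest Ctrl library, and SERPINH1 rose 2.47-fold (log2 fold change 1.30 ± 0.039 SE, edgeR adjusted p = 7.8e-16). A larger log2 fold change was found in few genes, since 98.8% of tested genes had a lower one. In Ctrl libraries the FPKM of SERPINH1 overlapped with those of P4HA3, and in shMTA1 SERPINH1 was second to PLOD1 by FPKM. Its promoter, shown above, is the single one among the 8 with a heat shock element.

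The collagen chains that SERPINH1 attends moved in both directions, and only their sum is set beside it here. The summed FPKM of the 38 collagen chains with FPKM values was 252 ± 10.7 in shMTA1 and 154 ± 2.99 in Ctrl (SD, n = 3 each). The FPKM of SERPINH1 divided by that sum was 0.166, 0.166 and 0.157 in shMTA1 libraries, against 0.102, 0.104 and 0.102 in Ctrl libraries. The ratio was 1.58 times as high in shMTA1, without overlap. COL7A1, the chain of anchoring fibrils, made up 47.0% of the sum in shMTA1 and 45.2% in Ctrl, so the sum follows 1 gene closely.

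Among the cross-linking oxidases, LOX and LOXL2 rose the most of all 10 genes. LOX (ENSG00000113083.15, chromosome 5), the founding lysyl oxidase, had 503, 528 and 547 counts in shMTA1 libraries, against 148, 95 and 123 counts in Ctrl libraries. That was 2.66, 2.68 and 2.87 FPKM in shMTA1 and 0.73, 0.45 and 0.58 FPKM in Ctrl. The groups were far apart, while the Ctrl libraries spread more among themselves than the shMTA1 libraries did. LOX rose 4.46-fold (log2 fold change 2.16 ± 0.11 SE, edgeR adjusted p = 1.8e-12). With a pseudocount of 1 added to FPKM, the log2 difference shrank to 1.24, because the Ctrl level lies below that pseudocount. In GENCODE 29 its exons share 138 bases with SRFBP1 on the opposite strand, which had 87, 86 and 81 counts in shMTA1 libraries and 63, 52 and 48 in Ctrl.

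LOXL2 (ENSG00000134013.16, chromosome 8), which is known to cross-link type IV collagen, had 6.18, 6.68 and 7.12 FPKM in shMTA1 libraries, against 2.31, 2.01 and 2.08 FPKM in Ctrl libraries. The groups did not overlap and LOXL2 rose 2.98-fold (log2 fold change 1.58 ± 0.064 SE, edgeR adjusted p = 8.5e-14). LOXL2 was the most abundant oxidase by FPKM in every library and made up 63.8 ± 0.912% of the family sum in shMTA1 and 59.6 ± 0.714% in Ctrl. In GENCODE 29 its exons share 120 bases with ENTPD4 on the same strand. ENTPD4 had 360, 339 and 341 counts in shMTA1 libraries and 129, 138 and 122 in Ctrl, beside 1251, 1405 and 1451 for LOXL2 in shMTA1 and 497, 453 and 475 in Ctrl. How reads in the shared bases were counted was not tested.

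LOXL1 (ENSG00000129038.16, chromosome 15), known for its part in elastic fibres, did not pass. It had 81, 71 and 83 counts in shMTA1 libraries, against 59, 72 and 63 counts in Ctrl libraries, the lowest counts of the 10 genes. The raw counts overlapped while the scaled values did not, and the estimate was 1.25-fold (log2 fold change 0.33 ± 0.15 SE, edgeR adjusted p = 0.075, unadjusted p = 0.046). It passed as higher when shMTA1 replicate 2 was left out (edgeR adjusted p = 0.047) or under scaling by library size alone (0.033). Its exons share 335 bases with the antisense gene LOXL1-AS1, which had 69, 55 and 65 counts in shMTA1 libraries and 88, 81 and 91 in Ctrl. LOXL1-AS1 fell (-0.41 ± 0.15, edgeR adjusted p = 0.028), a call that ended without shMTA1 replicate 2 (0.13), Ctrl replicate 1 (0.074) or Ctrl replicate 3 (0.068), and in 7 of 17 alternatives in all. Reads of the pair cannot be told apart where strand was not used.

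LOXL3 and LOXL4, the other two enzymes of the family, were scarce. LOXL3 averaged 0.357 ± 0.0586 FPKM in shMTA1 and 0.307 ± 0.0666 FPKM in Ctrl and did not pass (log2 fold change 0.16 ± 0.19 SE, edgeR adjusted p = 0.50). LOXL4 had 6, 3 and 11 counts in shMTA1 libraries and 8, 7 and 17 in Ctrl, too few to be tested. The family sum was 10.4 ± 0.650 FPKM in shMTA1 and 3.58 ± 0.227 FPKM in Ctrl (SD, n = 3 each). LOX stood at 0.430, 0.401 and 0.403 of LOXL2 in shMTA1 libraries, against 0.316, 0.224 and 0.279 in Ctrl libraries, and at 4.37 ± 0.384 times LOXL1 in shMTA1 and 1.25 ± 0.388 times in Ctrl. LOXL2 stood at 10.6 ± 1.28 times LOXL1 in shMTA1 and 4.52 ± 0.677 times in Ctrl. These 3 ratios did not overlap between the groups (exact permutation p = 0.10 for each), although the ratio of LOX to LOXL2 turned with a pseudocount of 1 on FPKM (difference of log2 ratios 0.61 as deposited and -0.04997 with it). Of the 7 ratios planned among the enzymes, 6 reached that smallest p and none could pass 0.05, with an adjusted p of 0.12 over the 7.

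**Figure D3:**
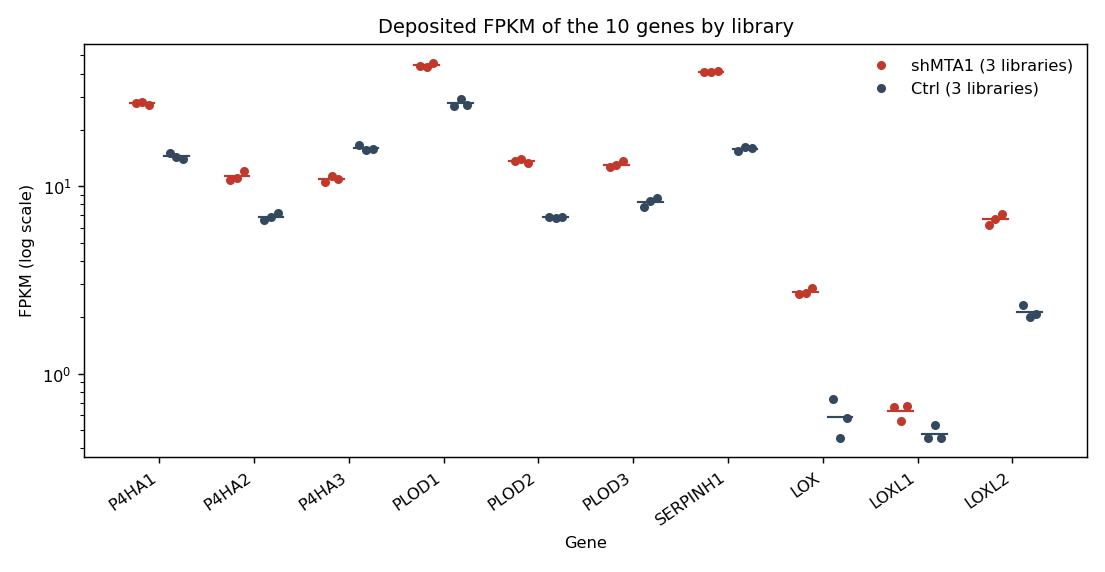
Deposited FPKM of the 10 genes in each of the 3 shMTA1 libraries (red, left) and 3 Ctrl libraries (dark, right), on a log axis, with the group mean as a bar. P4HA3 is the gene whose red points lie below the dark ones, the LOX points lie between 2.66 and 2.87 in shMTA1 and between 0.45 and 0.73 in Ctrl, and those of LOXL1 lie closest together.

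Ordered by FPKM, the 10 genes ran from PLOD1 at 44.3 to LOXL1 at 0.630 in shMTA1 and from PLOD1 at 27.8 to LOXL1 at 0.477 in Ctrl. In shMTA1 the order was PLOD1, SERPINH1, P4HA1, PLOD2, PLOD3, P4HA2, P4HA3, LOXL2, LOX and LOXL1. Of these neighbours, PLOD2 and PLOD3, and P4HA2 and P4HA3, overlapped between libraries. In Ctrl the order was PLOD1, P4HA3, SERPINH1, P4HA1, PLOD3, P4HA2, PLOD2, LOXL2, LOX and LOXL1, with overlap between P4HA3 and SERPINH1, P4HA2 and PLOD2, and LOX and LOXL1. By FPKM, P4HA3 was thus second in Ctrl and seventh in shMTA1. Per kilobase of coding sequence SERPINH1 was first in both groups, at 227 CPM in shMTA1 and 92.1 CPM in Ctrl, and PLOD1 was second. On that scale P4HA3 was below P4HA1 in shMTA1 and above it in Ctrl, and LOX was above LOXL1 without overlap in both groups, at 13.5 CPM against 1.47 CPM in shMTA1 and 3.05 CPM against 1.17 CPM in Ctrl. The hydroxylases and SERPINH1 were well expressed for this cell line, with a mean FPKM above that of 80.0% to 92.8% of tested genes, against 49.8% for LOX, 69.0% for LOXL2 and 26.7% for LOXL1.

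The partners that fold and modify collagen beside these enzymes rose too. Of 13 listed, 11 were tested, 10 rose and 0 fell, beside 29.5% and 28.6% of all tested genes. The median log2 fold change of these partners was 0.44. PPIB, the proline isomerase of the 3-hydroxylation complex, averaged 5624 ± 130 CPM in shMTA1 and 3491 ± 56.8 CPM in Ctrl (log2 fold change 0.69 ± 0.041 SE, edgeR adjusted p = 2.8e-11). FKBP10, an isomerase that acts with PLOD2, rose by 0.44 ± 0.038 on the log2 scale. P3H1, the prolyl 3-hydroxylase (0.32), and COLGALT1, which adds galactose to hydroxylysine (0.39), rose as well. CRTAP, a further protein of the 3-hydroxylation complex and the single tested partner that did not pass, had 747 CPM in shMTA1 and 744 CPM in Ctrl (0.0059 ± 0.040, edgeR adjusted p = 0.91). Its sign turned under some settings. P3H1, COLGALT1 and CRTAP were chosen after their values were seen.

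Of 17 listed genes for procollagen export and processing, 13 were tested, 9 rose, 1 fell and 3 did not pass, with a median of 0.32. The shares over all tested genes were 29.5% higher and 28.6% lower. MIA3, also called TANGO1, which loads procollagen at the exit sites of the endoplasmic reticulum, had 817, 979 and 913 counts in shMTA1 libraries, against 461, 518 and 514 counts in Ctrl libraries (log2 fold change 0.91 ± 0.061 SE, edgeR adjusted p = 1.4e-10). SAR1B, a coat GTPase of those sites, rose by 0.72 ± 0.057. PCOLCE, which enhances removal of the C-propeptide, averaged 243 ± 6.17 CPM in shMTA1 and 142 ± 3.08 CPM in Ctrl (0.78 ± 0.040). TLL2, a proteinase related to BMP1, fell at a very low level, with 0.0753 ± 0.0494 CPM in shMTA1 and 0.448 ± 0.125 CPM in Ctrl (-2.51 ± 0.48, edgeR adjusted p = 1.6e-04). At 1 to 4 counts in each shMTA1 library, the log2 fold change of TLL2 was -3.11 without shMTA1 replicate 3 and -2.15 without shMTA1 replicate 2.

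Copper supply and the remaining cross-linking enzymes were mixed. Of 8 listed, 7 were tested, 1 rose and 2 fell, with a median of 0.16. Among all tested genes 29.5% rose and 28.6% fell, so a mixture of calls is common here. The copper chaperone ATOX1, which carries copper to the ATPases that load LOX, averaged 50.2 ± 1.14 CPM in shMTA1 and 66.2 ± 2.52 CPM in Ctrl (log2 fold change -0.40 ± 0.046 SE, edgeR adjusted p = 3.2e-07). PXDN, the peroxidase that forms sulfilimine bonds in collagen IV, fell by 0.41 on the log2 scale. ATP7A, the ATPase known to supply copper to LOX, did not pass (0.19 ± 0.18), nor did the copper importer SLC31A1 (0.05 ± 0.052), both chosen after their values were seen. ATP7B rose (0.90 ± 0.27) but stayed below 1 CPM on average, at 0.890 CPM in shMTA1 and 0.476 CPM in Ctrl, and the call on the log2 fold change of ATP7B ended without Ctrl replicate 2 (edgeR adjusted p = 0.059) and on both FPKM scales (limma adjusted p = 0.098 with a pseudocount of 0.1 and 0.24 with 1).

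Genes of the cofactors of the hydroxylases changed in both directions. Of 10 listed and tested, 5 rose and 4 fell, with a median of 0.03. Calls in both directions are common, with 29.5% of all tested genes higher and 28.6% lower. The transporters SLC2A1 (log2 fold change 1.23 ± 0.050 SE) and SLC2A3 (0.68 ± 0.045), which carry glucose and oxidised ascorbate, rose. The transferrin receptor TFRC, which brings in iron, averaged 73.2 ± 3.43 CPM in shMTA1 and 40.7 ± 2.19 CPM in Ctrl (0.85 ± 0.051, edgeR adjusted p = 2.8e-11). FTH1, the iron-storing ferritin heavy chain, fell by 0.89 on the log2 scale, and FTL, its light chain, by 0.80. SLC23A2, an ascorbate transporter, rose (0.51 ± 0.13), and the related SLC23A1 fell (-1.59 ± 0.31), with 0.396 CPM in shMTA1 and 1.19 CPM in Ctrl. The values of FTL, SLC23A1 and SLC23A2 were seen before these genes were named. Ferritin genes have pseudogenes that can share reads.

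The substrates, the collagen chains, changed in both directions. Of 41 chains listed, 29 were tested, 15 rose, 6 fell and 8 did not pass, with a median log2 fold change of 0.32. In the fibrillar list 4 of 9 tested rose and 1 fell, in the basement membrane and network list 6 of 9 rose and 2 fell, and among the other chains 5 of 11 rose and 3 fell. Over all tested genes 29.5% rose and 28.6% fell, so calls in both directions are common in this comparison. The type V chains COL5A1 (0.98 ± 0.040), COL5A2 (0.91 ± 0.040) and COL5A3 (3.58 ± 0.14) rose, as did the type VI chains COL6A1 (1.05 ± 0.046) and COL6A2 (1.08 ± 0.052), COL7A1 (0.70 ± 0.044) and COL12A1 (0.81 ± 0.050). COL5A3 was scarce in Ctrl, with 19, 36 and 46 counts, against 385, 404 and 377 counts in shMTA1 libraries. COL4A6 (0.67 ± 0.050) and COL18A1 (0.64 ± 0.066) rose as well. The edgeR adjusted p of these chains was at most 6.9e-08.

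Type I collagen, the main substrate of these enzymes in connective tissue, did not follow. COL1A1 averaged 16.4 ± 0.470 CPM in shMTA1 and 31.6 ± 1.46 CPM in Ctrl, a fall (log2 fold change -0.94 ± 0.056 SE, edgeR adjusted p = 2.2e-11). COL1A2 averaged 0.871 CPM in shMTA1 and 1.32 CPM in Ctrl and did not pass (-0.59 ± 0.26, edgeR adjusted p = 0.060), and COL3A1 did not either (-0.13 ± 0.19), both chosen after their values were seen. COL9A3, a chain of cartilage type IX collagen, averaged 25.1 ± 0.746 CPM in shMTA1 and 60.5 ± 2.36 CPM in Ctrl (-1.27 ± 0.051, edgeR adjusted p = 7.3e-14). COL15A1 fell as well (-0.99 ± 0.18), at a level of 1.16 CPM in shMTA1 and 2.31 CPM in Ctrl. The median of the fibrillar list was -0.13, and it became 0.30 with a filter of 1 CPM in 3 libraries. Among the tested fibrillar chains, COL2A1 (-0.28) alone missed that filter, while COL1A2 and COL3A1 met it.

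Beside the 10 genes, general chaperones of the endoplasmic reticulum and genes induced by low oxygen rose in shMTA1, as did 29.5% of all tested genes. All 12 listed chaperones rose (median 0.66), with HSPA5, the main one, at 1.31 ± 0.041 on the log2 scale, HYOU1 at 1.65 ± 0.047 and CANX, the lectin chaperone calnexin, at 1.04 ± 0.041. SERPINH1 at 1.30 was close to HSPA5, and P4HB at 0.64 near the list median. All 15 listed hypoxia-induced genes rose (median 0.89), with CA9, a surface carbonic anhydrase, at 2.01 ± 0.063, NDRG1, a stress-induced gene, at 1.61 ± 0.040 and SLC2A1 at 1.23. ALDOA, on the same list, averaged only 1.01 FPKM in shMTA1 and 0.487 FPKM in Ctrl, far below the listed PGK1, LDHA and ENO1. The cause of its low level was not tested, and ALDOA was chosen after its values were seen. Of the 5 genes named above as induced by low oxygen in other cells, LOX at 2.16 lay above CA9. PLOD2 at 0.93 and P4HA1 at 0.88 lay near the list median, and P4HA2 at 0.65 and PLOD1 at 0.60 below it. The part of oxygen supply or of the stress of the endoplasmic reticulum in these values was not tested.

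**Figure D4:**
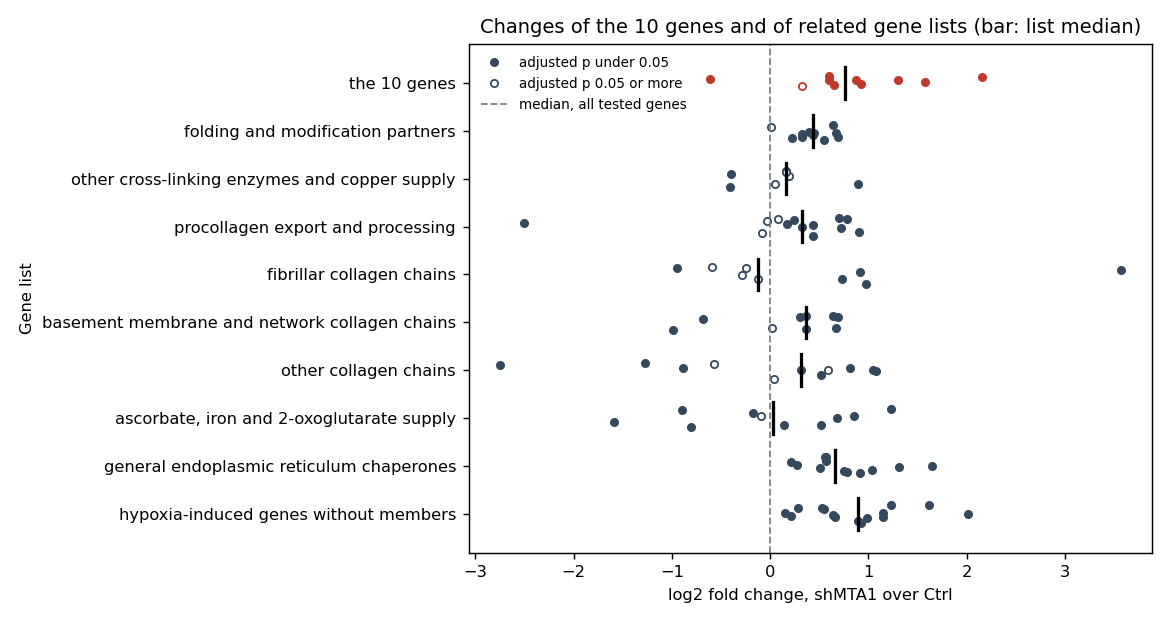
Log2 fold change, shMTA1 over Ctrl, of each tested member of the 10 genes (red) and of 9 related gene lists (dark); filled points passed an adjusted p of 0.05, open points did not, and bars mark the median of each list. The points of the chaperone and hypoxia lists all lie right of 0, while the collagen and cofactor lists spread to both sides.

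The genes whose profile over the 6 libraries was most like each enzyme were found by Pearson's r of log2 CPM among 11635 genes with a mean of 2 CPM or more. For P4HA1 the nearest was HK2, a hexokinase. For P4HA3 the nearest were the mitotic kinase AURKA and GLRX5, for PLOD2 TNFRSF10B and the metal transporter SLC39A14, and for SERPINH1 RMDN3 and DNER. For LOX they were PSMD10 and TOM1, and for LOXL2 the semaphorin SEMA3A and MFAP4. For each of the 9 called genes the r of the nearest gene was at least 0.999. The 6 points share the difference between the groups, and between 1542 and 1997 genes had an r above 0.95 with each of the 9, so these neighbours describe 1 common contrast.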

How the data were processed

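RNA of PC-3 cells was sequenced as stranded total RNA libraries in 6 samples, per the labels' protocols. The authors deposited whole-number counts per gene, without normalization, and FPKM values that the authors scaled for gene length and depth, per the file headers. Which aligner, counter, strand setting, build and annotation they used was not given in the sources used here. DESeq2 appears in the submitters' processing notes, with no role. Members were taken by symbol.

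Counts were tested in R 4.3.3 with edgeR 4.0.16 (filterByExpr, TMM, quasi-likelihood F test, group as the only term, 2-sided, Benjamini-Hochberg over 15423 genes, threshold 0.05), after a check on simulated counts. CPM use TMM-scaled library sizes. The SE were derived from the same fit, as the absolute log2 fold change divided by the square root of its F statistic. The median log2 change of all tested genes was 0.0015 in this fit and 0.069 with scaling by library size only. On log2 FPKM with a pseudocount of 0.1 it was 0.059. Group ratios of FPKM, such as those of the family sums, therefore run slightly above those of CPM. The biological coefficient of variation was 4.45%. Replicates differed by 3.22 to 9.01 times the squared difference that counting noise gives, and libraries of different groups by 88.2 to 96.2 times, so no library was a copy. Ratios within a library were compared with exact permutation tests (SciPy). The alternatives were other scalings and filters, DESeq2 1.42.0, limma 3.58.1 on voom values and on log2 FPKM with pseudocounts of 0.1 and 1, a replicate block, a minimum fold of 1.2 and each library left out. Named genes were all members, MTA1, P4HB, up to 3 called genes with the smallest p in the main direction of each list and 1 in the other, and the 2 genes most like each member; some of these are not reported here. The members, lists and tests were chosen with earlier results of these data known. Overlaps of exons and transcript lengths come from GENCODE 29, promoters from RefSeq.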

Additional observations from a re-analysis of the deposited data

How the results depend on the processing

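The 9 called genes kept their direction and their call in all 17 alternatives, with an adjusted p of at most 4.3e-05. Of all genes, 4650 passed with a minimum fold of 1.2 set in the test, against 8954 without it, and 9 members passed in both. Leaving out 1 library at a time gave 8145 to 8586 called genes and 9 or 10 called members. LOXL1 was the tenth without shMTA1 replicate 2, with scaling by library size only and on both FPKM scales (adjusted p = 0.025 with a pseudocount of 0.1 and 0.019 with 1). With the replicate number as a block, 9139 genes and 9 members passed. Same-numbered libraries deviated together with correlations of 0.15, -0.044 and 0.052, and 3 of 6 libraries correlated best with their own number. With so few libraries in each group, these values cannot settle whether the numbers pair the libraries.

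With a pseudocount of 1 on FPKM, the difference in the log2 ratio of LOX to LOXL2 turned to -0.04997, against 0.61 without it. The log2 fold change of CRTAP turned to -0.000259 with DESeq2 size factors and to -0.000255 in the DESeq2 test. With 1 library left out, CRTAP ran from -0.0183 to 0.0265, COL3A1 from -0.31 to 0.0856 and ATP7A from -0.00488 to 0.30, and the signs turned without shMTA1 replicate 1 or Ctrl replicate 2 for CRTAP, Ctrl replicate 1 for COL3A1 and shMTA1 replicate 3 for ATP7A. SEC23A, an export gene that did not pass (-0.0295) and was chosen after its values were seen, turned to 0.0387 with scaling by library size only and to 0.0306 and 0.0168 on the FPKM scales. The causes were not tested. COL1A2 passed as lower with no filter (adjusted p = 0.033), a filter of 1 CPM (0.049), the block (0.034), and without shMTA1 replicate 1 (0.030) or Ctrl replicate 2 (0.022). Counts were low for LOXL1 (59 to 83 per library), LOXL3 (43 to 64) and LOXL4 (3 to 17), which limits the precision of their values.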

Other observations

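Surface genes usually read as fibroblast markers were not uniform in these epithelial cells. THY1 averaged 77.0 ± 0.846 CPM in shMTA1 and 32.1 ± 2.39 CPM in Ctrl (SD, n = 3 each; log2 fold change 1.26 ± 0.052 SE, edgeR adjusted p = 1.2e-13). FAP, a serine protease of activated fibroblasts, averaged 1.62 ± 0.274 CPM in shMTA1 and 0.319 ± 0.0803 CPM in Ctrl (2.32 ± 0.27, edgeR adjusted p = 3.7e-07). PDGFRB was lower, with 2.55 CPM in shMTA1 and 3.60 CPM in Ctrl (-0.50 ± 0.13, edgeR adjusted p = 0.0031), a gene chosen after its values were seen.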
